A study of Mus musculus with 12 samples.

Results

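The 39 genes described here encode proteins that prepare, start and carry out the copying of DNA. They were taken from a given list of names, each gene by its probe set with the highest mean log2 value over all 12 arrays, out of 18193 genes that the arrays could name. All 39 were found, through 90 probe sets. Their mean log2 values ran between 6.27 and 12.1, except for Tyms at 4.03, the only member under the median probe set. RNA came from C3H10T1/2, a mouse embryonic cell line that can form cartilage, bone, fat and muscle cells, and was read on Affymetrix arrays.

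The 12 arrays fell into 4 groups of 3. The groups of the over-expression experiment were cells transfected with siRNA-140, which mimics the cartilage microRNA miR-140, and cells transfected with siRNA-96 as their control. The groups of the suppression experiment were cells transfected with LNA-antimicroRNA-140, an oligonucleotide that blocks the cells' own miR-140, and cells transfected with LNA-antimicroRNA-449 as their control. No untreated cells were among these arrays. Each control acts on another microRNA, so a difference may come from either microRNA of a pair. In human cells, miR-449 is induced by the transcription factor E2F1 and belongs to the miR-34 family, which restrains the cell cycle. Mature miR-140 is not read by these arrays. The labels give no dose, no time after transfection and no statement on separate cultures, so p-values measure only the spread between these samples.

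Replication begins when the origin recognition complex, with Cdc6 and Cdt1, loads the ring-shaped MCM helicase onto DNA before S phase. Cdc45 and the GINS proteins then turn the ring into a working helicase, DNA polymerases copy both strands, and the sliding clamp Pcna holds the polymerases on their template. Transcription of many of these genes rises at the passage into S phase under control of E2F factors, so that in a growing culture their RNA also follows the share of cycling cells. In such bulk samples, fewer cells in S phase and less RNA per cell cannot be told apart.

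The promoter sequences of the members were not used in their selection. The 5 below are shown because Orc1, Cdc6, Mcm6 and Rrm2 are among the genes whose values by array follow and Mcm5 shows an overlapping pair of E2F matches. RefSeq promoters (GRCm38.p6) from 250 bases before to 50 after the start were matched for 32 of the 39 genes, all but Gins1, Gins2, Pole, Prim2, Mcm4, Gmnn and Rfc2. The E2F letters searched, on both strands, were TTTCCCGC, TTTCGCGC, TTTGCCGC and TTTGGCGC. They occurred in 13 of the 32 genes (40.6%), against 2.6% of all 27025 genes of the promoter table. In 8 of the 13 a match lay wholly before the start. Further genes of the replication pathway had a like share, 17 of 41 (41.5%). The CHR letters TTTGAA, an element known from promoters of mitosis genes, occurred in 4 of the 32 (12.5%), against 11 of 16 mitosis genes (68.8%) and 20.2% of all genes. CCAAT, the letters of the factor NF-Y, occurred in 20 of the 32 (62.5%), against 14 of 16 mitosis genes (87.5%) and 41.1% of all genes. A match is a run of letters in this window and not a measured binding site. The 250 bases before the start are printed 5′ to 3′ on the strand of the gene, with E2F matches in capitals.
Orc1 (chr4:108579204-108579453, plus strand): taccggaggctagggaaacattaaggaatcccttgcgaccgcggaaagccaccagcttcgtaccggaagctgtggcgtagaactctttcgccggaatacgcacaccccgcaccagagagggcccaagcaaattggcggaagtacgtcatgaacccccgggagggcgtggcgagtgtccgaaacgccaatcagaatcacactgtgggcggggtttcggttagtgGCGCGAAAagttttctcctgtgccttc
Cdc6 (chr11:98907901-98908150, plus strand): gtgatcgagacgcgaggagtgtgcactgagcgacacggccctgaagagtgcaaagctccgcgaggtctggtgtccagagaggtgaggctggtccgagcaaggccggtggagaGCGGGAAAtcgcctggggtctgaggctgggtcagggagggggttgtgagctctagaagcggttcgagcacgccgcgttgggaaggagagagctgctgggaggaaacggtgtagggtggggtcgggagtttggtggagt
Mcm5 (chr8:75109259-75109508, plus strand): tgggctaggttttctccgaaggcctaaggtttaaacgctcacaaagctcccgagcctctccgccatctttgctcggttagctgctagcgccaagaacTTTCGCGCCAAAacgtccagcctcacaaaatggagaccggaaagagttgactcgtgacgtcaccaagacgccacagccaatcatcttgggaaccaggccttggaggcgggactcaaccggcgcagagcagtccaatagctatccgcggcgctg
Mcm6 (chr1:128359706-128359955, minus strand): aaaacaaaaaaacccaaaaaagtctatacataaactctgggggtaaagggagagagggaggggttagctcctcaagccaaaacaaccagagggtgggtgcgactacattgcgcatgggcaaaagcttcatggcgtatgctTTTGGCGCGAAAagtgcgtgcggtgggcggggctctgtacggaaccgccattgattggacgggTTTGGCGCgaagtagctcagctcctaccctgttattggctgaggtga
Rrm2 (chr12:24708004-24708253, plus strand): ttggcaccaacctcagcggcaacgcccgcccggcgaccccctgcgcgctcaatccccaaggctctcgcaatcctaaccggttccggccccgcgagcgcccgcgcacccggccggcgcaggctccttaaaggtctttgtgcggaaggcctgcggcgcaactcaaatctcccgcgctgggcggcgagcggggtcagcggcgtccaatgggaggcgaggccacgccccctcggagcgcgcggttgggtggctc
Orc1 held 1 match, 27 bases before the start, and Cdc6 held 1, at 138 bases. In Mcm5 a pair of matches on opposite strands overlapped, at 153 and 149 bases. Mcm6 held such an overlapping pair at 110 and 106 bases and another match at 47 bases. Rrm2 held none of these letters in this window.

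Of the facts that touch all arrays, the following bear on the members. Among markers of mesenchymal cells, 9 of 10 had mean log2 values between 7.14 and 13.6, and Thy1 read 3.48. The 6 epithelial markers ran from 2.42 for Krt18, with Cdh1 at 3.56, to 6.22 for Epcam. The 4 endothelial markers ran from 2.71 for Pecam1 to 4.3 for Kdr. The 4 blood cell markers ran from 2.38 for Ptprc to 5.21 for Cd68 and Csf1r. The 3 markers of skeletal muscle ran from 3.47 for Myod1 to 5.66 for Des. On 2 of the siRNA arrays the profile went against the label. The mean of 9 interferon-induced genes, centred over the 6 siRNA arrays, was -1.60, -1.43 and 0.53 on the siRNA-140 arrays (replicates in order), against -1.36, 1.67 and 2.19 on the siRNA-96 arrays. siRNA-140 replicate 3 thus lay on the side of siRNA-96 replicates 2 and 3, and siRNA-96 replicate 1 on the side of siRNA-140 replicates 1 and 2. The gene Vnn1 split the same arrays, with 10.37, 10.51 and 5.52 on the siRNA-140 arrays, against 10.04, 5.66 and 5.27 on the siRNA-96 arrays. Whether the labels of these 2 arrays were exchanged cannot be told from the files, and an exchange would alter every siRNA difference given with the groups as labelled. The 18S ribosomal RNA control signal was also high on siRNA-96 replicate 1, at 10.5, against 5.4 to 7.86 on the other 5 siRNA arrays. Results of that experiment are given with and without these 2 arrays, which were singled out by their profile and not by a label. Median log2 values of the arrays lay between 3.95 and 4.02 in the siRNA experiment and between 4.32 and 4.38 in the antimicroRNA experiment. Both may have been normalized apart, so levels were compared only within an experiment.

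The over-expression experiment compared cells given siRNA-140, the miR-140 mimic, with cells given siRNA-96. No replication gene passed the test. limma called 0 of the 39, where it called 0 of all 45037 probe sets (0%), and at an unadjusted p under 0.05 there were also 0 of 39, against 5.09% of all probe sets (3.21% higher and 1.88% lower). The 6 siRNA arrays fitted alone gave 0 called too, with 0 of 39 at the unadjusted level, against 2.25% (1.28% higher and 0.97% lower). The difference was above 0 in 27 genes, against 55.9% of all probe sets, below 0 in 11 and at 0 in Mcm4, with a median log2 difference of 0.053, against 0.027 over all 18193 genes. The 95% interval of every member held 0, and in 36 of the 39 it lay within 0.5 log2 units of 0 on both sides. The intervals of Orc1, Prim2 and Tyms reached farther, with -0.52 as the lowest bound and 0.67 as the highest. These intervals are from the fit of all 12 arrays. With the 6 siRNA arrays fitted alone, the SE was larger for every member but Tyms. It was 0.232 against 0.185 for Rrm2 and 0.211 against 0.168 for Prim2, so the 12-array intervals may be too narrow for this experiment. After a further quantile normalization the median was -0.0033, with 18 genes above 0 and 21 below, so the side on which most members lay changed with this setting.

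**Figure D1:**
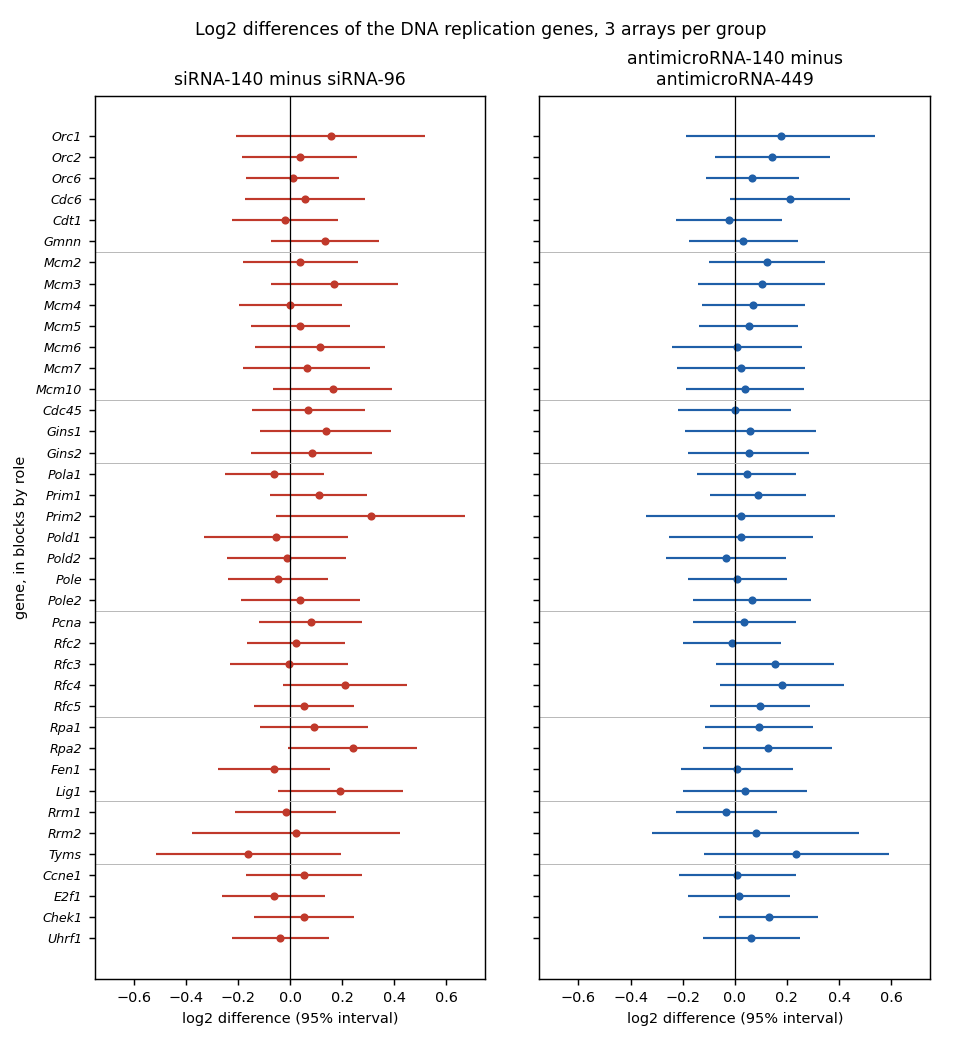
Log2 differences of the 39 DNA replication genes (points, with 95% intervals of the limma fit) for siRNA-140 minus siRNA-96 on the left and antimicroRNA-140 minus antimicroRNA-449 on the right, 3 arrays per group. Genes run down the page in blocks by role. Every interval crosses 0, and the farthest bounds are -0.52 and 0.67 on the left.

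Among the genes of origin recognition and licensing, log2 differences lay between -0.02 and 0.16. Orc1, the largest subunit of the origin recognition complex, read 6.01, 6.42 and 5.97 with siRNA-140, against 6.33, 5.95 and 5.65 with siRNA-96. The groups overlapped, with siRNA-140 replicate 2 and siRNA-96 replicate 1 highest and siRNA-96 replicate 3 lowest. The difference was 0.16 ± 0.17 (SE). A second Orc1 probe set of similar level, 1443172_at, gave 0.29 ± 0.10 without overlap (limma unadjusted p = 0.010, adjusted p = 0.88). Gmnn, which encodes the Cdt1 inhibitor geminin, differed by 0.13 ± 0.10. Cdc6, the loading factor, differed by 0.057 ± 0.107, and its partner Cdt1 by -0.02 ± 0.09. Orc2 and Orc6, further subunits of the recognition complex, differed by 0.037 and 0.01.

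The 6 subunits of the MCM helicase and Mcm10, a factor that joins the active helicase, had differences between 0 and 0.17. Mcm6 read 10.31, 10.66 and 10.25 with siRNA-140, against 10.44, 10.25 and 10.18 with siRNA-96. Again siRNA-140 replicate 2 and siRNA-96 replicate 1 were highest, and the groups overlapped. Mcm3 differed by 0.17 ± 0.11 and Mcm10 by 0.16 ± 0.11, while Mcm2, Mcm5 and Mcm7 differed by 0.04, 0.04 and 0.063. Of the factors that activate the helicase, Cdc45 differed by 0.07, Gins1 by 0.14 and Gins2 by 0.083. None of these genes passed the test, and the smallest unadjusted limma p among them was 0.145, for Mcm10.

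Prim2, the large subunit of the primase that makes RNA primers, had the widest spread of the polymerase and primase genes. It read 7.91, 8.23 and 7.51 with siRNA-140, against 7.85, 7.62 and 7.25 with siRNA-96, a difference of 0.31 ± 0.17 (interval -0.05 to 0.67; limma unadjusted p = 0.088). The highest arrays were siRNA-140 replicates 1 and 2 and siRNA-96 replicate 1. Prim1, the catalytic primase subunit, read 8.98, 9.10 and 8.96 with siRNA-140, against 8.88, 8.94 and 8.89 with siRNA-96, and its groups did not overlap. Its difference was 0.11 ± 0.09 (limma unadjusted p = 0.222). Pold1, the catalytic subunit of polymerase delta, read 7.12, 7.72 and 7.35 with siRNA-140, against 7.45, 7.46 and 7.44 with siRNA-96. The siRNA-140 arrays of Pold1 lay on both sides of the tight siRNA-96 group. Pola1, the catalytic subunit of polymerase alpha, read 8.31, 8.39 and 8.38 with siRNA-140, against 8.47, 8.38 and 8.41 with siRNA-96, a difference of -0.06 ± 0.09. Pold2, Pole and Pole2, the other polymerase subunits, differed by -0.013, -0.047 and 0.04.

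The second member without overlap between the groups was Rfc4, a subunit of the clamp loader. It read 8.19, 8.38 and 8.11 with siRNA-140, against 8.0, 8.04 and 8.01 with siRNA-96, a difference of 0.21 ± 0.11 (interval -0.03 to 0.45; limma unadjusted p = 0.079). Groups that did not overlap occurred in 2 of 39 members, both higher, against 6.1% of all probe sets (3.5% higher and 2.6% lower), so this count lay near the background. Rfc4's dimmer probe set gave 0.08. Pcna differed by 0.08 ± 0.09, and the other loader genes Rfc2, Rfc3 and Rfc5 by 0.023, -0.0033 and 0.053.

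Rpa2, a subunit of the protein that coats unwound DNA, had the smallest p of all members. It read 7.69, 8.02 and 7.61 with siRNA-140, against 7.45, 7.70 and 7.45 with siRNA-96, a difference of 0.24 ± 0.12 (interval -0.01 to 0.49; limma unadjusted p = 0.057, adjusted p = 0.88). Only siRNA-96 replicate 2 reached into the siRNA-140 values. Lig1, the ligase that joins Okazaki fragments, read 9.53, 9.67 and 9.33 with siRNA-140, against 9.43, 9.29 and 9.23 with siRNA-96, a difference of 0.19 ± 0.11 with overlap. Fen1, the nuclease that trims these fragments, read 9.63, 9.84 and 9.89 with siRNA-140, against 9.78, 9.85 and 9.92 with siRNA-96. Its difference was -0.063 ± 0.100, and that of Rpa1 0.093 ± 0.096.

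Of the genes of nucleotide supply, Rrm2, the regulated subunit of ribonucleotide reductase, read 10.83, 10.85 and 10.32 with siRNA-140, against 11.14, 10.31 and 10.48 with siRNA-96. Its arrays fell at either end, with siRNA-140 replicates 1 and 2 and siRNA-96 replicate 1 high, and the difference of the group means was 0.023 ± 0.185. Rrm1, the large subunit of that enzyme, read 9.94, 9.93 and 10.09 with siRNA-140, against 9.88, 10.05 and 10.08 with siRNA-96. It thus split the same arrays the other way, over a narrower range. Tyms, the thymidylate synthase gene, read 3.24, 3.71 and 3.63 with siRNA-140, against 3.77, 3.64 and 3.65 with siRNA-96. All 4 of its probe sets had mean log2 values of 4.03 or less, so little can be read from it.

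Of the regulators, E2f1 read 7.05, 6.94 and 7.11 with siRNA-140, against 7.12, 7.01 and 7.16 with siRNA-96, a difference of -0.063 ± 0.091. Ccne1, the cyclin that with Cdk2 drives entry into S phase, differed by 0.053 ± 0.104, and Uhrf1, which carries DNA methylation through replication, by -0.037 ± 0.086. Chek1, the kinase of the replication checkpoint, gave opposite signs between probe sets. Its brightest, 1449708_s_at, read 7.83, 7.85 and 7.73 with siRNA-140, against 7.71, 7.84 and 7.70 with siRNA-96, a difference of 0.053 ± 0.088. The next brightest, 1450677_at, gave 0.22 (unadjusted p = 0.049). The dim 1420032_at, with a mean of 3.63, gave -0.53 ± 0.12 (unadjusted p = 0.00055, adjusted p = 0.88). No direction is therefore given for Chek1. Over all 90 probe sets of the members, 4 were higher and 2 lower at an unadjusted p under 0.05, near the 3.21% and 1.88% of all probe sets, and both of the lower ones belonged to Chek1.

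**Figure D2:**
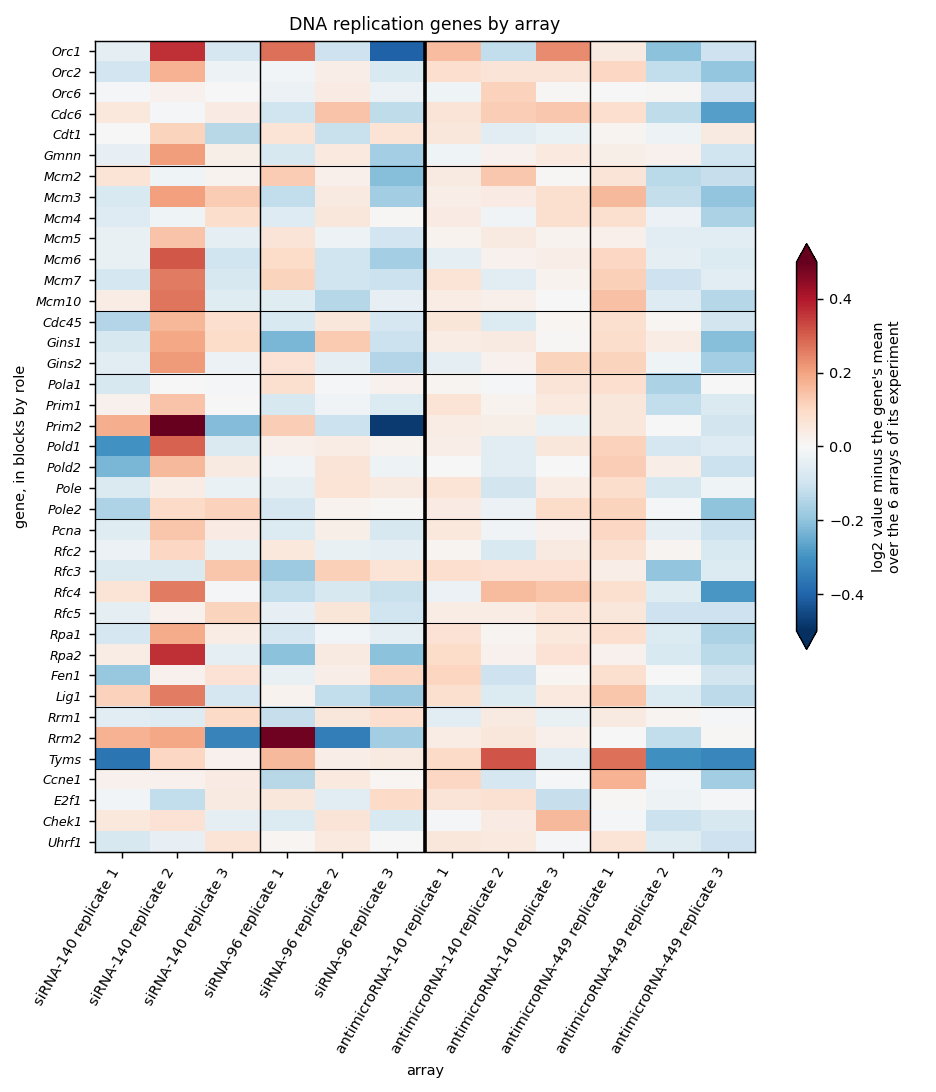
Log2 value of each of the 39 DNA replication genes on each of the 12 arrays, less the mean of that gene over the 6 arrays of its experiment (colour scale from -0.5 to 0.5). Columns are arrays with the siRNA experiment left of the thick line, and rows are genes in blocks by role. siRNA-140 replicate 2 is highest for 23 genes, antimicroRNA-449 replicate 1 is highest for 22 and antimicroRNA-449 replicate 3 is lowest for 25.

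Many members were highest, or lowest, on the same array. Counting ties on each array, siRNA-140 replicate 2 was the highest of the 6 siRNA arrays for 23 of the 39 genes, and siRNA-96 replicate 3 the lowest for 17. The mean of the members, centred over the experiment, was -0.046, 0.13 and -0.0038 in the siRNA-140 arrays, against -0.0061, -0.003 and -0.076 in the siRNA-96 arrays, replicates in order. siRNA-140 replicate 2 stood above the other 5 arrays. Its 95th percentile over all probe sets was also higher, at 9.52, against 9.40 to 9.42 on the others, and the part of this in the result was not tested. Without that array the median difference of the members was 0.012, with 23 genes above 0. The mitosis genes, 18 measured of 19 listed, had centred means of -0.14, 0.091 and 0.072 on the siRNA-140 arrays, against -0.09, 0.068 and -0.0019 on those of siRNA-96. They were thus lowest on siRNA-140 replicate 1 and siRNA-96 replicate 1.

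**Figure D3:**
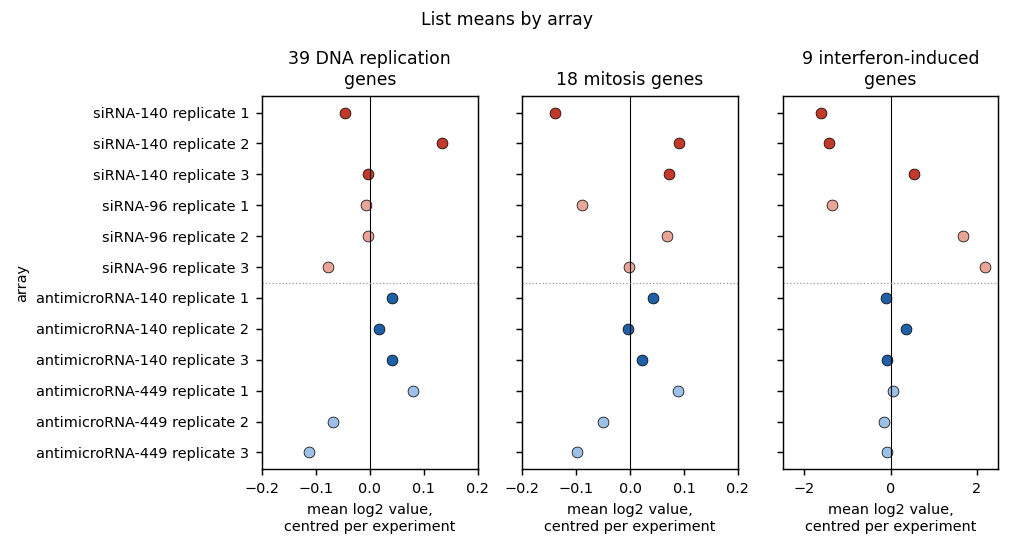
Mean log2 value per array of the 39 DNA replication genes, 18 mitosis genes and 9 interferon-induced genes, each gene centred over the 6 arrays of its experiment; the right panel has a wider axis. Replication genes range between -0.11 and 0.13, and interferon-induced genes between -1.60 and 2.19 over the siRNA arrays.

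Leaving out siRNA-140 replicate 3 and siRNA-96 replicate 1 left 2 arrays against 2 and brought 2 replication genes past the test, both higher with siRNA-140. In this fit of 10 arrays, Prim2 was higher by 0.64 ± 0.14 (SE; limma adjusted p = 0.0112) and Rrm2 by 0.45 ± 0.10 (adjusted p = 0.0169). The 2 of 39 stand against 8.98% of all probe sets called in that fit (5.13% called higher and 3.85% called lower), so the share of members was not above the background. The 10-array fit shares 1 estimate of the spread between both experiments, and on simulated data it called more unchanged probe sets in the siRNA comparison than its adjustment allows. The fit of 4 arrays did not, but it missed most of the changes put in. With these 4 siRNA arrays alone, limma called 0 of 39 members, against 3.87% of all probe sets (2.02% higher and 1.85% lower), and the adjusted p was 0.085 for Prim2 and 0.146 for Rrm2. At an unadjusted p under 0.05, that fit had 4 members higher and 0 lower, against 8.59% and 5.99% of all probe sets.

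Other probe sets gave the same sign in part. For Rrm2, 1448226_at gave 0.54 (10-array adjusted p = 0.0086) and 1416120_at 0.37 (adjusted p = 0.0951). For Prim2, 1418035_a_at gave 0.36 (adjusted p = 0.067), and the dim 1445474_at gave -0.31 (adjusted p = 0.491). One of the 4 probe sets of Mcm7, 1439269_x_at, passed at 0.36 (adjusted p = 0.0372), while its brightest gave 0.19 (adjusted p = 0.465). In the same fit Orc1 gave 0.42 ± 0.16 (adjusted p = 0.162), and its second probe set 0.38 ± 0.11 (adjusted p = 0.0556). Lig1 gave 0.34 ± 0.12 (0.105), Mcm6 0.27 ± 0.12 (0.243) and Rpa2 0.28 ± 0.13 (0.245). E2f1 gave -0.09 ± 0.11 and Pcna 0.065 ± 0.114, and the median of all 39 was 0.065, against 0.035 over all genes. The difference was above 0 in 25 members, against 56.6% of all probe sets, and below 0 in 13. Groups did not overlap in 10 members that were higher and 6 that were lower, against 24.9% and 16.4% of all probe sets. On the arrays kept, the 9 interferon-induced genes were all lower with siRNA-140 in this fit. On the arrays kept, label and interferon profile coincide, so their parts in the differences of Prim2 and Rrm2 cannot be told apart. The part of the 18S signal was not tested.

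**Figure D4:**
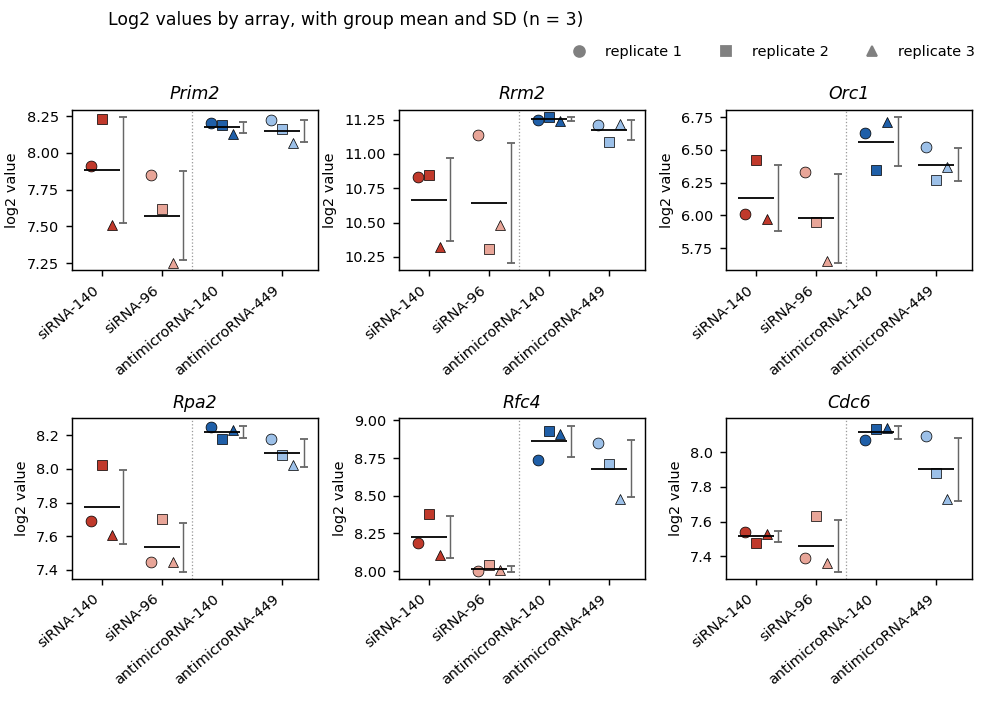
Log2 values of 6 replication genes on each array (circle, square and triangle for replicates 1, 2 and 3), with group means as horizontal lines and SD as grey bars (n = 3). On the siRNA arrays Prim2 ranges over 0.98 and Rrm2 over 0.83 log2 units within 6 arrays, while on the antimicroRNA arrays they range over 0.15 and 0.18.

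Further genes of the replication pathway were read in the same way. Of 53 further genes listed, 49 were measured; with the groups as labelled 0 passed the test, and 2 were higher and 0 lower at an unadjusted p under 0.05, against 3.21% and 1.88% of all probe sets. These were Exo1, a nuclease of mismatch repair, at 0.28 ± 0.11 (limma unadjusted p = 0.021) and the GINS gene Gins4 at 0.29 ± 0.13 (limma unadjusted p = 0.048). Rpa3 (-0.17 ± 0.09) and E2f2 (-0.11 ± 0.11) had the smallest p on the lower side. In the 10-array fit 4 of the 49 were higher and 1 lower, against the 5.13% and 3.85% of all probe sets given above. Pole3, a small subunit of polymerase epsilon, read 9.12, 9.18 and 8.61 with siRNA-140, against 8.93, 8.52 and 8.56 with siRNA-96, and was higher in that fit by 0.61 ± 0.10 (limma adjusted p = 0.00234). Wdhd1, which links helicase and polymerase alpha, was higher by 0.59 ± 0.12, Pold4 by 0.56 ± 0.14 and Gins4 by 0.50 ± 0.13. E2f7, an E2F factor that represses transcription, read 6.63, 6.76 and 7.64 with siRNA-140, against 6.26, 7.46 and 7.38 with siRNA-96. It was lower in that fit, at -0.72 ± 0.12 (adjusted p = 0.00207). Its low arrays were siRNA-140 replicates 1 and 2 and siRNA-96 replicate 1. These were the high arrays of Prim2, Rrm2, Pole3, Wdhd1 and Pold4, but the low arrays of the members Rrm1 and Rfc3. With the 4 siRNA arrays alone, E2f7 and Pole3 stayed past the test (adjusted p = 0.0195 for E2f7 and 0.0394 for Pole3).

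The suppression experiment compared cells given the oligonucleotide against miR-140 with cells given the oligonucleotide against miR-449. Again no replication gene passed. limma called 0 of 39, where it called 0 of 45037 probe sets (0%), and at an unadjusted p under 0.05 there were 0 of 39, against 2.27% (0.935% higher and 1.33% lower). A fit of the 6 antimicroRNA arrays alone also called 0, with 0 of 39 at that level, against 4.77% (2.22% higher and 2.55% lower). Yet the members lay mostly on 1 side: 34 differences were above 0, 4 below and Cdc45 at 0, where 48.5% of all probe sets were above 0. The median was 0.053, against -0.0033 over all genes. The 49 further pathway genes leaned the same way, with 42 above 0 and a median of 0.067. In 37 of the 39 the 95% interval of the 12-array fit lay within 0.5 log2 units of 0, all but Orc1 and Tyms. With the 6 antimicroRNA arrays fitted alone, the SE was smaller for every member but Tyms. It was 0.073 against 0.168 for Prim2 and 0.111 against 0.169 for Orc1, whose interval was then -0.076 to 0.43. The 12-array intervals of such genes may thus be too wide for this experiment. SEs given below are from the 12-array fit unless stated.

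The size of that lean depended on single antimicroRNA-449 arrays. Centred means of the members were 0.042, 0.018 and 0.04 on the antimicroRNA-140 arrays, against 0.08, -0.067 and -0.11 on the antimicroRNA-449 arrays, replicates in order. antimicroRNA-449 replicate 1 was the highest of the 6 arrays for 22 genes, above every antimicroRNA-140 array in the mean, and antimicroRNA-449 replicate 3 the lowest for 25. Without antimicroRNA-449 replicate 3 the median difference fell to 0.0083, with 22 genes above 0 and 17 below. Without antimicroRNA-449 replicate 1 it was 0.11, with 37 above 0 and 2 below, and still 0 called. The mitosis genes kept the same order, with 0.042, -0.0036 and 0.022 for antimicroRNA-140, against 0.089, -0.051 and -0.099 for antimicroRNA-449. The 18S ribosomal RNA control signal was 10.2 on antimicroRNA-449 replicate 1, against 5.92 to 6.75 on the other 5 arrays, and its part in the order of the arrays was not tested. The 95th percentile of the arrays lay between 9.75 and 9.78 with antimicroRNA-140, against 9.77, 9.74 and 9.72 with antimicroRNA-449. With quantile normalization within the experiment the median was 0.04, with 30 genes above 0.

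Cdc6 had the smallest p of the members. It read 8.07, 8.13 and 8.14 with antimicroRNA-140, against 8.09, 7.88 and 7.73 with antimicroRNA-449, a difference of 0.21 ± 0.11 (SE; interval -0.02 to 0.44; limma unadjusted p = 0.067, adjusted p = 1). antimicroRNA-449 replicate 1 lay within the antimicroRNA-140 group. Of the other licensing genes, Orc1 read 6.63, 6.35 and 6.71 with antimicroRNA-140, against 6.52, 6.27 and 6.37 with antimicroRNA-449, a difference of 0.18 ± 0.17. The second Orc1 probe set, 1443172_at, gave -0.067 ± 0.097, so the probe sets of Orc1 differed in sign and no direction is given. Orc2 differed by 0.14 ± 0.10 and Orc6 by 0.067 ± 0.083. Cdt1 read 10.57, 10.46 and 10.48 with antimicroRNA-140, against 10.53, 10.49 and 10.56 with antimicroRNA-449, and Gmnn differed by 0.033. The 2 factors that load the helicase thus gave 0.21 for Cdc6 and -0.023 for Cdt1, neither past the test.

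The helicase genes showed small differences, from 0.0067 for Mcm6 to 0.12 for Mcm2. Cdc45 gave 0, Gins1 0.06 and Gins2 0.053. Among polymerase and primase genes, Prim1 gave 0.09 ± 0.09, Pole2 0.067, Pola1 0.047, Prim2 0.023, Pold1 0.023 and Pole 0.01. Pold2, which holds the delta polymerase together, read 8.59, 8.53 and 8.59 with antimicroRNA-140, against 8.71, 8.62 and 8.48 with antimicroRNA-449, a difference of -0.033 ± 0.107. Prim2, so scattered over the siRNA arrays, stayed between 8.07 and 8.22 on these.

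Among clamp loader genes, Rfc3 read 7.76, 7.75 and 7.75 with antimicroRNA-140, against 7.71, 7.48 and 7.61 with antimicroRNA-449, a difference of 0.15 ± 0.11 (limma unadjusted p = 0.169) without overlap. Rfc4 read 8.74, 8.93 and 8.91 with antimicroRNA-140, against 8.85, 8.71 and 8.48 with antimicroRNA-449, a difference of 0.18 ± 0.11 with overlap. Rfc2 read 8.78, 8.69 and 8.81 with antimicroRNA-140, against 8.84, 8.78 and 8.69 with antimicroRNA-449, a difference of -0.01 ± 0.09. No gene of the clamp loader passed the test. Rfc5 gave 0.097 and Pcna 0.037. Of the fork proteins, Rpa2 gave 0.13 ± 0.12, Rpa1 0.093, Lig1 0.04 and Fen1 0.01.

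Rrm2 was the other member without overlap: it read 11.25, 11.27 and 11.24 with antimicroRNA-140, against 11.21, 11.09 and 11.22 with antimicroRNA-449. The gap between the groups was small, and the difference was 0.08 ± 0.18, or 0.08 ± 0.07 in the fit of the 6 antimicroRNA arrays alone. Groups did not overlap in 2 of 39 members, against 8.4% of all probe sets (4.06% higher and 4.34% lower). Rrm1 read 10.46, 10.56 and 10.48 with antimicroRNA-140, against 10.56, 10.53 and 10.51 with antimicroRNA-449. Tyms gave 0.24 ± 0.17 at its low level. Chek1 read 8.0, 8.05 and 8.17 with antimicroRNA-140, against 8.0, 7.90 and 7.93 with antimicroRNA-449, a difference of 0.13 ± 0.09 in which 2 arrays were level. Uhrf1 gave 0.063, E2f1 0.017 and Ccne1 0.01.

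Of the 49 further pathway genes, 0 passed and 1 reached an unadjusted p under 0.05 here, against 2.27% of all probe sets. This was Ccne2, a cyclin E gene like Ccne1. It read 8.13, 8.20 and 8.12 with antimicroRNA-140, against 8.17, 7.71 and 7.78 with antimicroRNA-449, a difference of 0.26 ± 0.12 (limma unadjusted p = 0.049). As for Cdc6, antimicroRNA-449 replicate 1 lay within the antimicroRNA-140 group. Pole4 had the next smallest p at 0.20 ± 0.13. On the lower side stood Cdkn1a, which encodes the inhibitor p21, at -0.093 ± 0.096 (limma unadjusted p = 0.349) and the maintenance DNA methyltransferase gene Dnmt1 at -0.093 ± 0.103 (limma unadjusted p = 0.381).

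Among the 32 members with a matched promoter, differences lay close with and without the E2F letters, a split that was not tested. The median was 0.04 in the 13 genes with a match and 0.053 in the 19 without for siRNA-140 against siRNA-96, and 0.053 and 0.08 for antimicroRNA-140 against antimicroRNA-449. Without the 2 siRNA arrays that stand apart, the siRNA medians were 0.075 and 0.06, in the reverse order. The ranges overlapped, from -0.06 to 0.19 with a match and from -0.16 to 0.24 without in the first comparison. Prim2, with the largest siRNA difference (0.31), had no matched promoter and was not in this split. The test of the difference between the 2 comparisons also called 0 of 39 members and 0 of 45037 probe sets (0%), with 0 of 39 at an unadjusted p under 0.05, against 2.94%. The largest such difference among the members' brightest probe sets was that of Tyms, at -0.40 (limma unadjusted p = 0.113). The second probe set of Orc1, 1443172_at, gave 0.36 (limma unadjusted p = 0.022, adjusted p = 0.997).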

How the data were processed

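RNA of C3H10T1/2 cells was read on 12 Affymetrix arrays in 4 groups of 3. The authors deposited log2 values, which per the submitters' processing notes come from RMA; its version and whether both experiments were normalized together are not given in the sources used here. RMA brings arrays to a shared distribution, which can hide a change common to most genes. Of 45101 probe sets, 64 array controls were left out and 45037 entered the test unfiltered; 34945 had 1 gene symbol in the platform annotation, 932 several and 9160 none.

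All probe sets were fitted with limma 3.58.1 (R 4.3.3) as 4 group means over 12 arrays with moderated variances. Calls used a Benjamini-Hochberg adjusted p under 0.05 over all 45037 probe sets, and every p printed is from limma. Array numbers limit the precision. On simulated data with each experiment's own spread, the 12-array fit called too many unchanged probe sets in the siRNA comparison, and fits of 1 experiment's arrays did not; their results are given beside it. Members, lists and alternatives were chosen with earlier results of these data known, and the promoter letters after the values had been seen. Named genes are all members; values by array are given for the 4 with the smallest p each way, for genes called in any fit and for those with a wide spread. Of other pathway genes, those called and the 2 with the smallest p each way are named. Same-numbered replicates were not treated as pairs. The closing section gives the alternatives: other array sets, a replicate block, normalizations, a level filter, variance models, array weights, an average over each gene's probe sets and single arrays left out.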

Additional observations from a re-analysis of the deposited data

How the results depend on the processing

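With the groups as labelled, 0 replication genes were called in either comparison, and this count stayed at 0 in the fits of 6 arrays, after a further quantile normalization or median centring, in probe sets at or above the median level, with trend and robust variances, with array weights, with an average over each gene's probe sets, at an unadjusted p, and without any 1 array. It became 2 for siRNA-140 against siRNA-96 without both arrays that stand apart, an alternative chosen after seeing the data, on 10 arrays, also after quantile normalization within each experiment, and 0 on 4 arrays. Over all probe sets, the count of 0 became 2292 and 1022 at an unadjusted p in the siRNA and antimicroRNA comparisons, 4043 without both arrays on 10 arrays, 4352 with quantile normalization added, and 1743 on 4 arrays. It ran from 0 to 36 without 1 siRNA array each, with 36 without siRNA-96 replicate 1 and 25 without siRNA-96 replicate 2, and was 0 without any 1 antimicroRNA array. The median of the members ran from 0.012 to 0.092 without 1 siRNA array each and from 0.0083 to 0.11 without 1 antimicroRNA array each. It changed sign in the siRNA comparison after quantile normalization of the 12 arrays (-0.0033) or within each experiment (-0.0028). The cause was not tested.

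With the replicate number as a block, 0 members were called in each comparison and in their difference, and 0 probe sets. Deviations of same-numbered arrays from their group means correlated at 0.41, -0.24 and 0.44 in the siRNA experiment. In the antimicroRNA experiment these correlations were -0.014, 0.10 and -0.032. In each experiment 2 of 6 arrays correlated best with their own number. The 2 siRNA arrays that stand apart also enter these correlations, so whether same-numbered samples share a culture cannot be told from them. Tyms lies near the low end of the signal, which limits what its values can show.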
